A study of Homo sapiens with 15 samples.

Results

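The enzymes that break down the branched-chain amino acids leucine, isoleucine and valine were followed through adipogenic differentiation and exposure to tumour cell medium. The set holds 10 genes chosen by name: BCAT1, BCAT2, BCKDHA, BCKDHB, DBT, BCKDK, IVD, MCCC1, ACADSB and HIBCH. All 10 were measured, each by 1 probe set, among 17687 genes on 15 arrays. The cells are ASC52, a human adipose mesenchymal stem cell line immortalised with telomerase reverse transcriptase. DED cells were taken through 14 days of adipogenic medium, begun 3 days after seeding, and then spent 7 days in RPMI with 10% fetal bovine serum that MDA-MB-231 cells, from a human breast carcinoma, had conditioned. MA cells had the same differentiation and then 7 days in unconditioned RPMI with 10% serum. MSC cells were the undifferentiated line, for which the labels give no medium and no harvest time. Each group has 5 arrays of this 1 line. The labels do not tie the 5 arrays to separate cultures, and p-values therefore speak only to the array-to-array spread, which may be technical.

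Branched-chain amino acid breakdown begins with a reversible transamination, run by BCAT1 in the cytosol and by BCAT2 in mitochondria. The keto acids then pass the committed step, the mitochondrial branched-chain keto acid dehydrogenase, built from E1 alpha (BCKDHA), E1 beta (BCKDHB), E2 (DBT) and E3 (DLD) subunits, switched off by the kinase BCKDK and switched on by the phosphatase PPM1K. Separate mitochondrial routes follow for leucine (IVD, MCCC1), isoleucine (ACADSB) and valine (HIBCH), and they end in acetyl-CoA, acetoacetate or propionyl-CoA. Fat cells raise this pathway as they mature and use its carbon for lipid synthesis.

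The labelled cell types were checked against their markers. Of 9 measured adipocyte markers, 9 rose in MA against MSC, and 8 fell in DED against MA. The mean log2 intensity of these 9 markers ran from 9.33 to 10.70 in DED arrays, from 11.51 to 11.67 in MA arrays and from 5.38 to 5.59 in MSC arrays. ADIPOQ, the hormone adiponectin, stood at 12.19 ± 1.04 in DED, 15.15 ± 0.08 in MA and 3.91 ± 0.36 in MSC (log2 intensity, mean ± SD, n = 5). Of 8 measured epithelial markers, looked at because the conditioned medium came from carcinoma cells, 7 had group means under the 95th percentile of the negative control probe sets (8.31) in every group. The exception, named after its values were seen, was the keratin KRT8. The log2 differences of DED from MA ran from -0.07 to 0.35 over the 8. None of the 8 had a call in DED against MA or in MA against MSC. In DED against MSC 1 rose, ESRP1 by 0.48, with its group means under 8.31. The array means of 8 mesenchymal stem cell markers were 11.60 to 12.03 in DED, 11.67 to 11.93 in MA and 12.59 to 12.97 in MSC. In DED against MA 2 of them rose, THY1 by 0.76 (limma adjusted p = 0.00031) and ENG by 0.74 (3.4e-05), and 2 fell, NT5E by 0.70 (0.00014) and CD44 by 0.46 (0.017). Among the 8 stem cell markers, 4 fell and 1 rose in MA against MSC. The log2 differences there were -1.55 for THY1, -1.18 for ENG, -2.42 for DPP4, -4.02 for PI16 and 1.13 for PDGFRA. The MA means of DPP4 and PI16 were under 8.31, so the size of these falls depends on background. DPP4, PI16 and PDGFRA had no call in DED against MA. The array means of 5 macrophage markers were 7.05 to 7.41 in DED, 7.09 to 7.20 in MA and 6.93 to 7.20 in MSC. Those of 5 endothelial markers were 5.16 to 5.51 in DED, 5.35 to 5.54 in MA and 6.09 to 6.34 in MSC. Of the macrophage markers CD14 rose by 1.40 in DED against MA (limma adjusted p = 7.6e-05), with both means under 8.31. CD68 fell by 1.18 in DED against MA (limma adjusted p = 1.0e-05) and rose by 0.82 in MA against MSC (0.00038). TEK, under 8.31 in MA, fell by 3.98 in MA against MSC (limma adjusted p = 1.3e-12), the 1 endothelial call there. The part of other cell types in the results was not tested. DED arrays correlated with each other at 0.982 to 0.995 over all genes, against 0.992 to 0.993 among MA arrays and 0.992 to 0.994 among MSC arrays. DED arrays 1 and 3 lay farthest apart. Levels are compared between groups for 1 gene at a time, since the probes of different genes respond differently. In such bulk samples fewer cells of a type and less RNA per cell cannot be told apart.

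BCAT1 showed the clearest reversal. Its log2 intensity was 10.94, 10.78, 11.52, 11.41 and 11.34 in DED arrays 1 to 5, against 9.99, 10.10, 10.31, 10.43 and 10.08 in MA arrays 1 to 5. In MSC arrays 1 to 5 it was 11.63, 11.73, 11.73, 11.60 and 11.87. All 3 groups were separate, with MA lowest, DED between and MSC highest. BCAT1 fell by 1.53 on the log2 scale in MA against MSC (SE 0.14, limma adjusted p = 2.2e-08), which is 2.89-fold lower. It rose by 1.02 in DED against MA (SE 0.14, limma adjusted p = 1.0e-05), 2.02-fold higher. In DED it still lay below MSC by 0.51 (log2 difference -0.51, SE 0.14, limma adjusted p = 0.0061). With DED arrays 1 and 3 left out, the difference of DED from MA was 0.99 (limma adjusted p = 5.6e-05).

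BCAT2, the mitochondrial partner, had no call in any comparison. Its values ran from 7.31 to 8.10 in DED, from 7.63 to 7.88 in MA and from 7.59 to 7.92 in MSC, so the 3 groups overlapped. The difference of MA from MSC was -0.06 (95% interval -0.33 to 0.22, limma adjusted p = 0.80), and that of DED from MA was -0.13 (95% interval -0.40 to 0.15, limma adjusted p = 0.55). That of DED from MSC was -0.18 (limma adjusted p = 0.33), and it was -0.31 (0.033) without DED array 3. All group means of BCAT2 were below that percentile of the control probe sets, where background can shrink a difference.

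BCAT1 was also set against BCAT2 within each array, as the log2 value of BCAT1 minus that of BCAT2. Because BCAT2 was under 8.31 in every group, this difference follows BCAT1 and does not measure the balance of the transaminases. It was 3.63, 3.38, 3.42, 3.92 and 3.70 in DED arrays 1 to 5, against 2.11, 2.36, 2.64, 2.78 and 2.45 in MA arrays 1 to 5. In MSC it ran from 3.88 to 4.01. No DED array overlapped MA, and DED array 4 reached into the MSC range. It changed by 1.14 in DED against MA and by -1.47 in MA against MSC, close to the changes of BCAT1 alone (1.02 and -1.53). Each had a two-sided exact permutation p of 0.0079, the smallest that 5 arrays against 5 allow, and an adjusted p of 0.016 over the 6 such tests made. DED lay below MSC by a difference of -0.33 (exact permutation p = 0.016, adjusted 0.024; adjusted 0.054 without DED arrays 1 and 3).

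**Figure D1:**
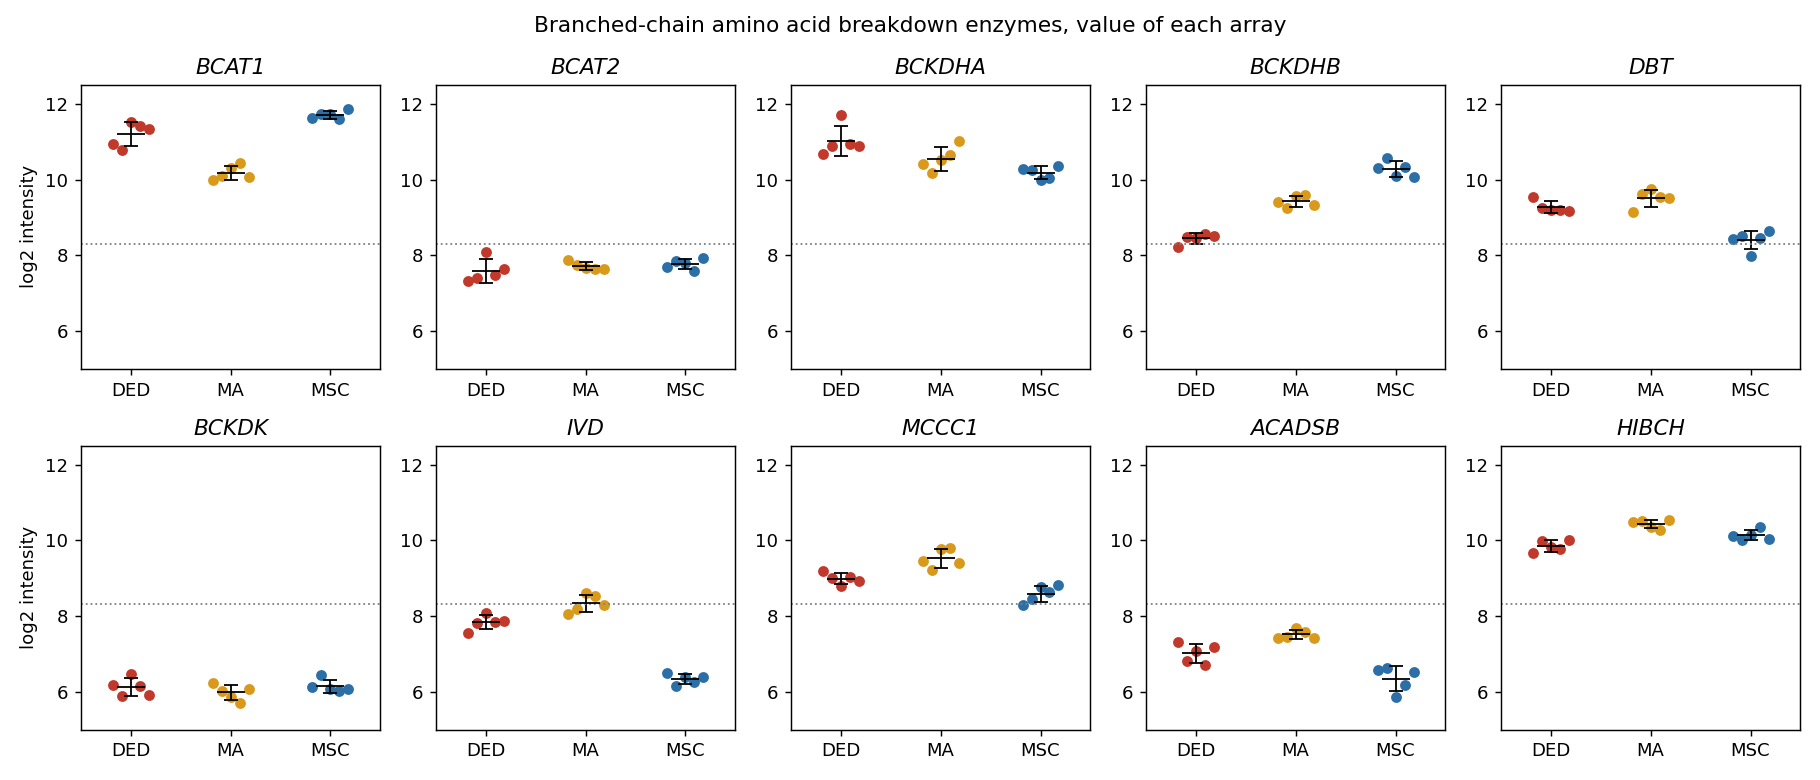
Log2 intensity of the 10 enzymes on each array (points) for DED, MA and MSC, with the mean and SD of 5 arrays in black; the dotted line is the 95th percentile of the negative control probe sets (8.31). BCAT1 is lowest in MA, BCKDHB is lowest in DED and highest in MSC, and IVD, MCCC1, ACADSB and HIBCH have their highest means in MA.

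The sequence upstream of BCAT1 is shown because this gene moved against most of the other members in both steps. Windows of 300 bases, 250 before and 50 after a RefSeq gene start (GRCh38.p14), were held for 9 of the 10 members and searched on both strands for 4 motifs. These were CACGTG, the E-box bound by MYC and related factors, TGATGNAA, the element bound by ATF4 with C/EBP factors, CCAAT, the box bound by NF-Y, and AAGGTCA, an extended nuclear receptor half-site. No matches overlapped each other. Of the 5 BCAT1 windows, that of the start at chr12:24949052-24949351 (minus strand) held TGATGNAA 48 bases before the start and CACGTG 14 bases after it. Both are in capitals below, 5′ to 3′ on the gene's strand. Among the other BCAT1 windows, those at chr12:24902173-24902472 and chr12:24902851-24903150 held CCAAT alone. Those at chr12:24903018-24903317 and chr12:24949291-24949590 held none of the 4 motifs. TGATGNAA occurs in 3.62% and CACGTG in 7.26% of all 35116 windows of this length. These shares are per window, whereas BCAT1 had 5 windows and the 1 with both motifs is shown. Which start these cells use was not tested.
BCAT1: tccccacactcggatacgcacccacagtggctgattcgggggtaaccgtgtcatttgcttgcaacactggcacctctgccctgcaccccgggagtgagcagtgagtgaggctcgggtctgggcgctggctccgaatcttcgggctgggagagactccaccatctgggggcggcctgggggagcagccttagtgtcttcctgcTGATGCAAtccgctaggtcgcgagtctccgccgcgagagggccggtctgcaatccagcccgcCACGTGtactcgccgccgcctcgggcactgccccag

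E1 beta, encoded by BCKDHB, fell at both steps. Its log2 intensity was 8.21, 8.49, 8.47, 8.55 and 8.51 in DED arrays 1 to 5, against 9.40, 9.25, 9.56, 9.59 and 9.33 in MA arrays 1 to 5. In MSC arrays 1 to 5 it was 10.30, 10.58, 10.10, 10.33 and 10.06. The groups did not overlap in any comparison. BCKDHB fell by 0.85 in MA against MSC (log2 difference -0.85, SE 0.12, limma adjusted p = 7.7e-06). It fell by a further 0.98 in DED against MA (SE 0.12, limma adjusted p = 2.1e-06). Against MSC it was 3.55-fold lower in DED (log2 difference -1.83, SE 0.12, limma adjusted p = 1.1e-10). Without DED array 1, the lowest, the difference of DED from MA was -0.92 (limma adjusted p = 7.2e-06).

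E1 alpha, encoded by BCKDHA, pairs with E1 beta in the decarboxylase and showed no fall. It read 10.67, 10.88, 11.70, 10.93 and 10.90 in DED arrays 1 to 5, against 10.41, 10.17, 10.51, 10.65 and 11.01 in MA arrays 1 to 5. In MSC it ran from 9.98 to 10.37. DED and MA overlapped, whereas DED lay wholly above MSC. BCKDHA rose by 0.83 in DED against MSC (SE 0.17, limma adjusted p = 0.00074). The difference of MA from MSC was 0.37 (SE 0.17, limma adjusted p = 0.12; 0.045 without DED array 3, which enters through the shared estimate of the spread). That of DED from MA was 0.47 (SE 0.17, limma adjusted p = 0.056). The last passed without MA array 5 (0.58, limma adjusted p = 0.018) or DED array 1 (0.55, 0.027), and it was 0.29 (0.16) without DED array 3.

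The E2 subunit DBT, which carries the acyl group, was 9.55, 9.26, 9.19, 9.20 and 9.17 in DED arrays 1 to 5, against 9.14, 9.63, 9.74, 9.53 and 9.51 in MA arrays 1 to 5. In MSC arrays 1 to 5 it was 8.43, 8.51, 7.99, 8.46 and 8.63. Every DED and MA array was above every MSC array. DBT rose by 1.11 in MA against MSC (SE 0.13, limma adjusted p = 1.4e-06) and by 0.87 in DED against MSC (SE 0.13, limma adjusted p = 2.8e-05). Between DED and MA the difference was -0.24 (95% interval -0.52 to 0.05, limma adjusted p = 0.23). The E3 subunit DLD, shared with other keto acid dehydrogenases, fell by 0.64 in DED against MA (SE 0.14, limma adjusted p = 0.0018). Its difference of MA from MSC was 0.36 (SE 0.14, limma adjusted p = 0.060), and the adjusted p was 0.030, 0.035 and 0.045 without MA array 3, DED array 1 or DED array 3.

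The kinase BCKDK had no call, with values of 5.89 to 6.47 in DED, 5.70 to 6.24 in MA and 6.03 to 6.45 in MSC. Its mean over all arrays exceeded that of 79.2% of the negative control probe sets, so a small change could not be read at this level. The 95% interval of its difference was -0.44 to 0.11 in MA against MSC and -0.14 to 0.41 in DED against MA. PPM1K, the opposing phosphatase, rose by 0.52 in MA against MSC (SE 0.16, limma adjusted p = 0.017; 0.059 and 0.052 without MSC array 1 or 2) and differed by -0.27 in DED against MA (limma adjusted p = 0.26). All group means of PPM1K, 7.36 in DED, 7.63 in MA and 7.11 in MSC, were under 8.31 like those of BCKDK. The within-array difference BCKDK minus PPM1K was -1.25 ± 0.39 in DED, -1.65 ± 0.20 in MA and -0.97 ± 0.44 in MSC (SD, n = 5 each). With both probe sets at this level it is given as values only and not as a balance of kinase and phosphatase.

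**Figure D2:**
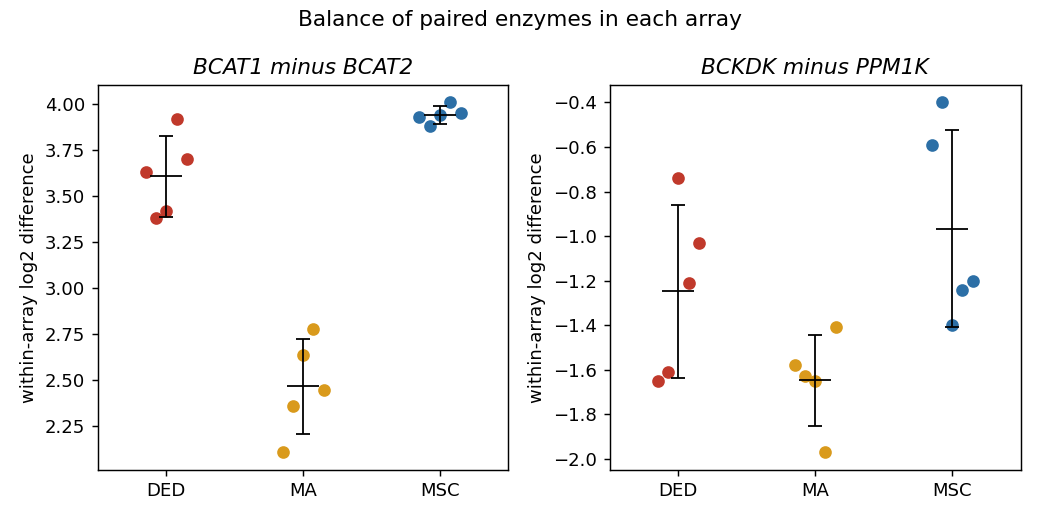
Within-array log2 difference of BCAT1 minus BCAT2 (left) and BCKDK minus PPM1K (right) for each array of DED, MA and MSC, with the mean and SD of 5 arrays in black; the vertical axes do not start at 0. BCAT1 minus BCAT2 is 3.38 to 3.92 in DED and 2.11 to 2.78 in MA, while BCKDK minus PPM1K overlaps between DED and MA; BCAT2, BCKDK and PPM1K were under 8.31 in every group.

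Downstream of the dehydrogenase the members had their highest mean in MA. IVD, isovaleryl-CoA dehydrogenase of the leucine route, was 7.56, 7.82, 8.09, 7.85 and 7.87 in DED arrays 1 to 5, against 8.06, 8.18, 8.61, 8.52 and 8.29 in MA arrays 1 to 5. In MSC arrays 1 to 5 it was 6.50, 6.14, 6.39, 6.27 and 6.40. MA and DED each lay wholly above MSC, and DED array 3 just entered the MA range. IVD rose by 1.99 in MA against MSC (SE 0.13, limma adjusted p = 1.0e-10). It fell by 0.49 in DED against MA (SE 0.13, limma adjusted p = 0.0056) and remained 1.50 above MSC (SE 0.13, limma adjusted p = 6.5e-09). Its DED and MSC means were under 8.31, the negative control percentile given above, so the size of these differences depends on background.

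MCCC1, the biotin-bearing subunit of methylcrotonyl-CoA carboxylase in the leucine route, was 9.18, 9.01, 8.80, 9.02 and 8.92 in DED arrays 1 to 5, against 9.46, 9.21, 9.78, 9.80 and 9.39 in MA arrays 1 to 5. In MSC it ran from 8.28 to 8.81. Every MA array was above every DED array, while DED touched the MSC range. MCCC1 rose by 0.94 in MA against MSC (SE 0.13, limma adjusted p = 1.1e-05) and fell by 0.54 in DED against MA (SE 0.13, limma adjusted p = 0.0045). Against MSC it rose by 0.40 in DED (limma adjusted p = 0.026), with adjusted p of 0.084, 0.064, 0.065 and 0.051 without MSC array 1, MSC array 2, DED array 1 or DED array 4. Its partner subunit MCCC2 rose by 0.78 in MA against MSC (SE 0.14, limma adjusted p = 0.00011) and fell by 0.61 in DED against MA (SE 0.14, limma adjusted p = 0.0019). The MSC mean of MCCC2, 8.21, was under 8.31.

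ACADSB, the short/branched chain acyl-CoA dehydrogenase of the isoleucine route, was 7.32, 6.82, 7.07, 6.71 and 7.18 in DED arrays 1 to 5, against 7.43, 7.46, 7.69, 7.59 and 7.43 in MA arrays 1 to 5. In MSC it ran from 5.85 to 6.64, and all 3 groups were separate. ACADSB rose by 1.17 in MA against MSC (SE 0.15, limma adjusted p = 2.9e-06). It fell by 0.50 in DED against MA (SE 0.15, limma adjusted p = 0.017; -0.42 and 0.057 without DED array 4), and in DED it was above MSC by 0.67 (limma adjusted p = 0.0014). All its group means were under 8.31 too.

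HIBCH, the hydrolase of the valine route, was 9.66, 9.98, 9.82, 9.77 and 10.02 in DED arrays 1 to 5, against 10.48, 10.52, 10.35, 10.27 and 10.53 in MA arrays 1 to 5. In MSC it ran from 10.02 to 10.34. DED lay wholly below MA, and MSC overlapped MA and met DED at 10.02. HIBCH fell by 0.58 in DED against MA (SE 0.11, limma adjusted p = 0.00029). It rose by 0.30 in MA against MSC (SE 0.11, limma adjusted p = 0.037), a call lost (adjusted p 0.055 to 0.086) when any 1 array was dropped among MSC arrays 1, 2, 3 and 5 and MA arrays 1, 2 and 5. In DED against MSC it fell by 0.28 (limma adjusted p = 0.045), a call lost (0.051 to 0.13) when any 1 was dropped among MSC arrays 1, 3 and 4, MA arrays 1, 2 and 3, and DED arrays 1, 3 and 4.

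Windows upstream of the members that moved most in other directions are shown beside that of BCAT1. BCKDHB fell at both steps and IVD had the largest rise of the 10 genes in MA against MSC. Neither window (BCKDHB at chr6:80106421-80106720, plus strand; IVD at chr15:40405545-40405844, plus strand) held CACGTG, TGATGNAA or AAGGTCA. Each held CCAAT 3 times, in capitals, read on the opposite strand as ATTGG at 2 of the BCKDHB and at 3 of the IVD matches. CCAAT occurs in 34.6% of all windows and in 8 of the 15 member windows, some of which overlap. Counted by gene, 6 of the 9 members with a window held it in at least 1. CACGTG was held by BCAT1 and MCCC1, TGATGNAA by BCAT1 alone and AAGGTCA (3.92% of all windows) by 0 of the 9. A match is a run of letters and not evidence of binding.
BCKDHB: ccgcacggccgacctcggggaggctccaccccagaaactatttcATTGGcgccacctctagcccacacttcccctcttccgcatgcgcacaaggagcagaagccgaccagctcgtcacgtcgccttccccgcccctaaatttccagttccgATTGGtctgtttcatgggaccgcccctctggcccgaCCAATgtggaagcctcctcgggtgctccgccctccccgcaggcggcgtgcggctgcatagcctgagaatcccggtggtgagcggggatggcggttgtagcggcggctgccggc
IVD: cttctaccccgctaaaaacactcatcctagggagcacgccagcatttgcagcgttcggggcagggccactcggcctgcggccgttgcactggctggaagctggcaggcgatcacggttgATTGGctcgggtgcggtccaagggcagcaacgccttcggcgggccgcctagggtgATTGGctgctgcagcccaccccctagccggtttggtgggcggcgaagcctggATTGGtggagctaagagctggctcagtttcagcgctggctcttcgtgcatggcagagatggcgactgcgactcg

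Counted over the 10 members, 5 rose and 2 fell in MA against MSC, where 33.0% of all genes passed the test (15.4% rose and 17.6% fell). The groups of arrays did not overlap for 6 members, against 27.0% of all genes. The median log2 difference of the members was 0.33 and that of all genes 0.00. In DED against MA 1 rose and 5 fell, where 25.9% of all genes passed (12.9% rose and 13.0% fell). The groups did not overlap for 5 members, against 18.1% of all genes, and the median was -0.36 against 0.02. In DED against MSC 5 rose and 3 fell, where 33.4% of all genes passed (17.1% rose and 16.4% fell), 6 did not overlap, against 25.1% of all genes, and the median was 0.18 against 0.03. With DED arrays 1 and 3 left out, 8 members passed in MA against MSC (BCKDHA added), 6 in DED against MA and 6 in DED against MSC (HIBCH and MCCC1 lost). The comparisons share arrays (MA enters the first and the second), so their calls are not independent of each other.

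**Figure D3:**
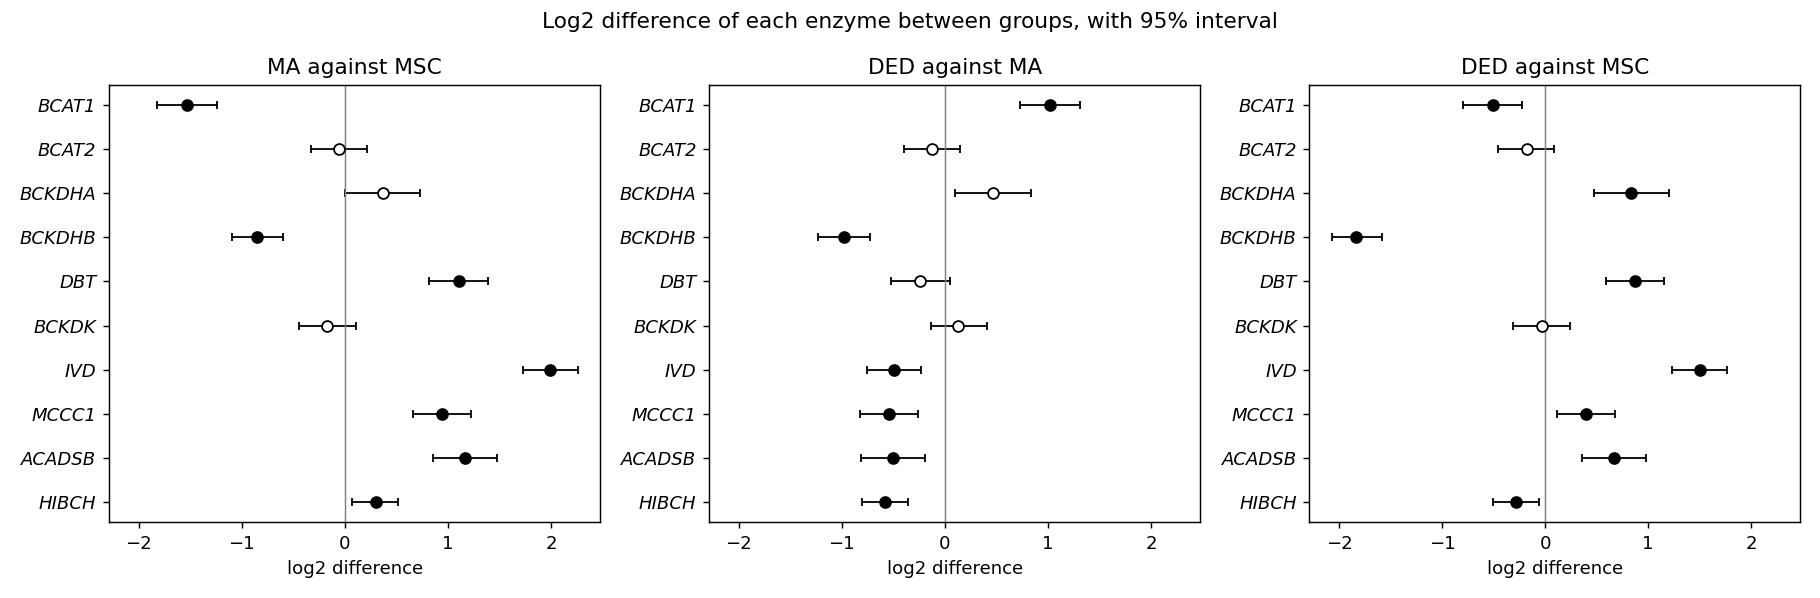
Log2 difference of each of the 10 enzymes in MA against MSC, DED against MA and DED against MSC, with its 95% interval; filled points passed the test (limma adjusted p under 0.05) and open points did not. BCAT1 is at -1.53 and then 1.02 in the first and second comparison, BCKDHB is below 0 in all 3, and BCAT2 and BCKDK are open in all 3.

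Among the 10 other measured breakdown enzymes, 7 rose in MA against MSC (median 0.51), where 15.4% of all genes rose. A further comparison, DED against MA, held 6 falls (median -0.59), where 13.0% of all genes fell. In DED against MSC 1 rose and 2 fell (median 0.07), where 17.1% of all genes rose and 16.4% fell. ALDH6A1, the methylmalonate semialdehyde dehydrogenase of the valine route, was 8.43 ± 0.27 in DED, 9.01 ± 0.20 in MA and 6.69 ± 0.17 in MSC (SD, n = 5 each), and it remained 1.74 above MSC in DED (SE 0.14, limma adjusted p = 2.6e-09). ECHS1, an enoyl-CoA hydratase also used in fatty acid oxidation, rose by 1.28 in MA against MSC (SE 0.12, limma adjusted p = 5.1e-08). In DED it lay at 10.90 ± 0.19, against 12.19 ± 0.24 in MA and 10.91 ± 0.08 in MSC. HIBADH, which acts after HIBCH, rose by 1.20 in MA against MSC (SE 0.11) and fell by 1.05 in DED against MA (SE 0.11, limma adjusted p = 6.0e-07). ACAT1, the thiolase of the isoleucine route, fell by 1.12 in DED against MA (SE 0.15, limma adjusted p = 1.1e-05). ACAD8, the valine route's isobutyryl-CoA dehydrogenase, was at 6.33 ± 0.30 in DED, 6.38 ± 0.35 in MA and 6.35 ± 0.21 in MSC (SD, n = 5 each), all under 8.31. The MSC mean of ALDH6A1 and the DED and MA means of ACAT1 (7.06 and 8.19) were under 8.31 as well, so the sizes of their differences depend on background.

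The propionate arm, which carries valine and isoleucine carbon into the citric acid cycle, held 3 rises among 6 genes in MA against MSC (median 0.41). It held 3 falls in DED against MA (median -0.44). Of all genes, 15.4% rose in the first of these comparisons and 13.0% fell in the second. PCCA, the alpha subunit of propionyl-CoA carboxylase, rose by 1.38 (limma adjusted p = 2.4e-07) in MA against MSC and fell by 0.90 (9.3e-05) in DED against MA. Its partner PCCB fell by 0.63 in DED against MA (limma adjusted p = 0.0075).

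Both chains of the main leucine importer changed in the same direction as BCAT1 at each step. SLC7A5, the large neutral amino acid exchanger that imports leucine, was 10.63, 11.55, 13.49, 12.28 and 12.00 in DED arrays 1 to 5, against 7.92, 8.27, 8.14, 8.13 and 8.32 in MA arrays 1 to 5. In MSC it ran from 11.83 to 12.26. SLC7A5 fell by 3.86 in MA against MSC (limma adjusted p = 6.0e-09) and rose by 3.83 in DED against MA (1.6e-08). Its MA mean of 8.16 was under 8.31, so the size of both differences depends on background. Its heavy chain SLC3A2 fell by 1.59 (limma adjusted p = 2.9e-06) and rose by 1.79 (1.1e-06) in the same comparisons. SLC7A8, a related exchanger, rose by 2.22 in MA against MSC (limma adjusted p = 2.5e-07). SLC25A44, the mitochondrial branched-chain amino acid carrier, had no call (0.22, limma adjusted p = 0.21, in MA against MSC and -0.01, 0.97, in DED against MA). Of the 7 transporters, 1 rose and 2 fell in MA against MSC, and 2 rose in DED against MA. The shares of all genes passing there were 33.0% and 25.9%.

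**Figure D4:**
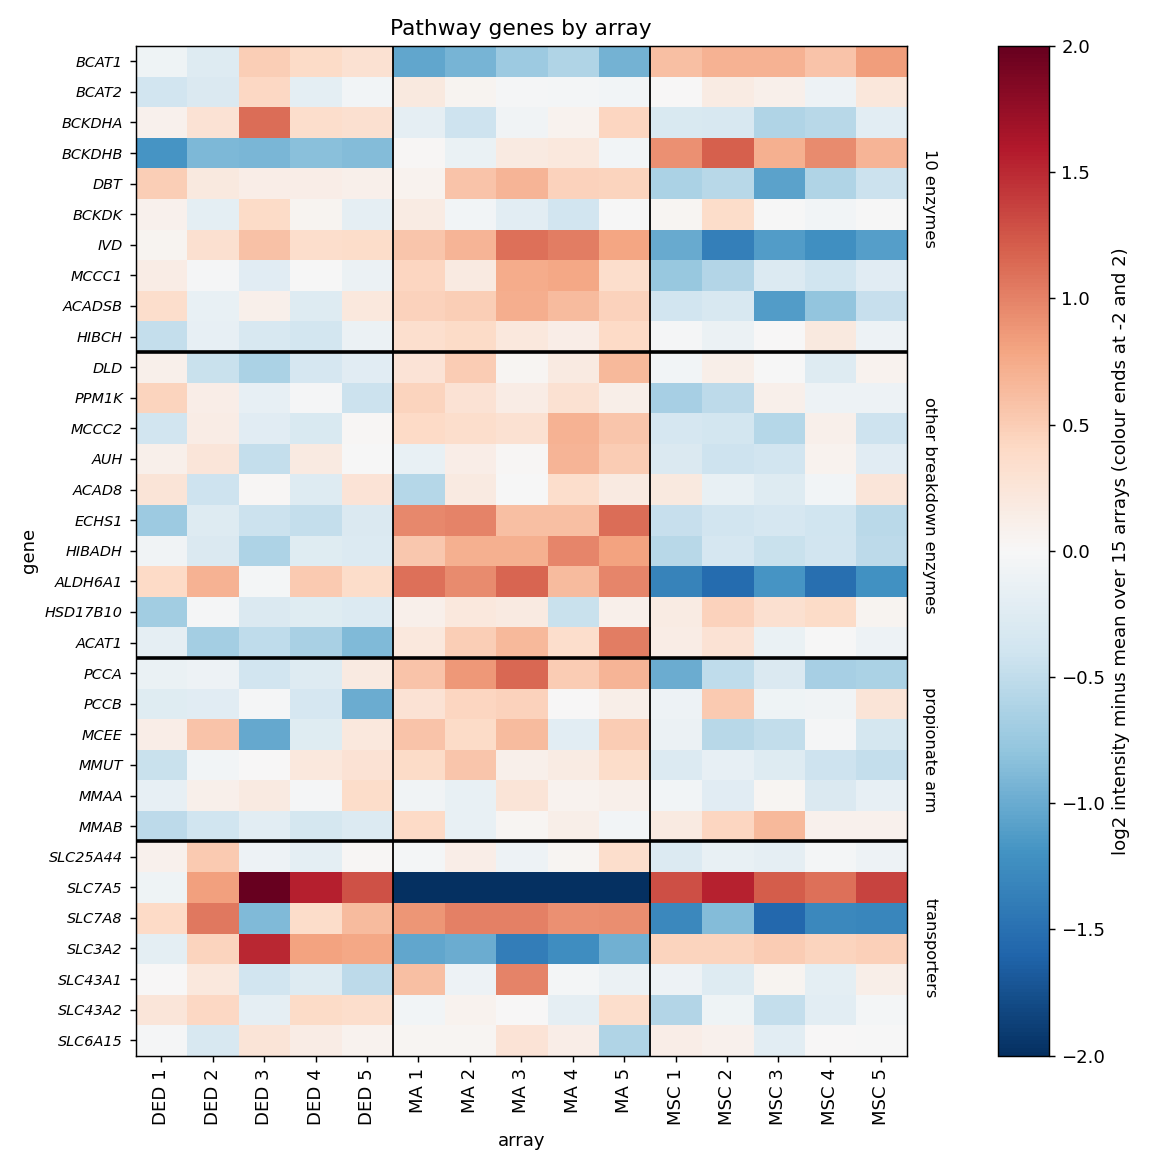
Log2 intensity of each pathway gene minus its mean over the 15 arrays, for DED, MA and MSC arrays in columns; rows are the 10 enzymes, the other breakdown enzymes, the propionate arm and the transporters, and the colours end at -2 and 2. SLC7A5 and SLC3A2 are low in MA like BCAT1, and IVD, ALDH6A1 and PCCA are high in MA and low in MSC.

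Other mitochondrial fuel pathways were counted in the same way. Of 13 fatty acid oxidation genes, 10 rose and 1 fell in MA against MSC (median 0.70), and 1 rose and 9 fell in DED against MA (median -0.52). Of 11 citric acid cycle genes, 7 rose in MA against MSC (median 0.44) and 6 fell in DED against MA (median -0.44). In DED against MSC the medians were 0.16 and 0.06. Among all genes 33.0% passed in MA against MSC and 25.9% in DED against MA. These lists are given beside the members as counts and medians and were not tested against them.

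Of 6 regulators listed with these genes, 3 rose and 2 fell in MA against MSC, and 2 rose and 1 fell in DED against MA. Calls went to 33.0% and 25.9% of all genes in these comparisons. PPARG, the fat cell nuclear receptor, was 8.89 ± 0.21 in DED, 10.61 ± 0.14 in MA and 7.06 ± 0.19 in MSC, with calls in all 3 comparisons (limma adjusted p from 1.2e-14 to 1.5e-09). KLF15, a glucocorticoid-induced factor that is known to raise BCAT2 in rodent muscle, was 8.68 ± 0.23 in DED, 8.68 ± 0.23 in MA and 5.30 ± 0.21 in MSC. ATF4, the amino acid stress factor, fell by 0.59 in MA against MSC (limma adjusted p = 1.3e-05) and rose by 0.73 in DED against MA (1.5e-06). HIF1A, the hypoxia factor, fell by 0.84 in MA against MSC (limma adjusted p = 4.1e-07) and rose by 1.43 in DED against MA (4.6e-10). PPARGC1A, a coactivator of mitochondrial genes, rose by 2.02 in MA against MSC (limma adjusted p = 1.7e-06). All group means of PPARGC1A and the MSC means of PPARG and KLF15 were under 8.31, so the size of those differences depends on background. MYC, which raises BCAT1 in tumour cells, had no call, with differences of 0.15 (limma adjusted p = 0.59) and -0.12 (0.70). The 6 proliferation markers fell in both steps, with array means of 6.30 to 7.07 in DED, 8.84 to 9.30 in MA and 11.44 to 11.60 in MSC. Of all genes 17.6% fell in MA against MSC and 13.0% in DED against MA. All 6 had DED means under 8.31, and 2 had MA means under it, so the size of these falls depends on background. Whether adipocyte marker level, proliferation or these regulators have a part in the enzyme changes was not tested.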

How the data were processed

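Gene expression was measured on 15 single-colour arrays, 5 each of DED, MA and MSC, grouped by sample title. The authors deposited log2 intensity values, 1 per probe set and array, summarised by RMA and handled in the Transcriptome Analysis Console software, per the submitters' processing notes, which name no version or build. RMA normalizes between arrays, so a shift shared by most genes cannot be read. Of 24351 probe sets, 17709 had 1 gene symbol in the platform annotation and 0 had several; the brightest was kept for 20 genes with several, leaving 17687. Differences came from limma 3.58.1, run in R 4.3.3 (1 mean per group, all 15 arrays, no covariates), two-sided, with Benjamini-Hochberg adjustment over 17687 genes and a threshold of 0.05. The fit was checked on simulated data. The within-array differences BCAT1 minus BCAT2 and BCKDK minus PPM1K were tested by exact permutation over arrays, 6 tests adjusted together; the second is given as values in the report, since both probe sets lie near background. The median over 612 negative control probe sets was 4.80. The number of arrays limits the precision.

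Members and lists were chosen with earlier results of these data known. The 10 members were named throughout, with 13 fixed genes in all comparisons and up to 4 largest calls per list. Of 118 listed genes, 112 were measured and the other 6 were not analysed here. Deviations of same-numbered arrays from their group means correlated at -0.108 to 0.0867 over all genes. No shared deviation was seen, but this cannot settle whether replicate numbers pair arrays. Alternatives were quantile normalization, a shift to 1 median, dim genes (under the 25th percentile) left out, single probe sets, an intensity trend, array weights, only the groups compared, the replicate block and arrays left out. Promoter windows came from RefSeq, and figures from Python 3.11.15 with matplotlib 3.10.9.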

Additional observations from a re-analysis of the deposited data

Results flagged for a closer look

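Within groups of 5 arrays, 4 of the 30 group values of the 10 members had 1 array far from the others by Dixon's ratio of gap to range; chance gives about 1 in 20. BCKDHA was 11.70 in DED array 3, against 10.67 to 10.93 in the other DED arrays. Without it, the difference of DED from MSC was 0.66 (limma adjusted p = 0.0012) and that of DED from MA 0.29 (0.16). BCKDHB was 8.21 in DED array 1, against 8.47 to 8.55, and its difference of DED from MSC was -1.77 without that array (limma adjusted p = 5.6e-10). DBT was 9.55 in DED array 1, against 9.17 to 9.26, and without it the difference of DED from MA was -0.31 (limma adjusted p = 0.12). BCKDK was 6.45 in MSC array 2, against 6.03 to 6.12, and without it the difference of MA from MSC was -0.09 (limma adjusted p = 0.68). Of the 4 flagged values 3 are from DED arrays 1 or 3, which lie farthest apart over all genes.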

How the results depend on the processing

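Members passing numbered 7 in MA against MSC, 6 in DED against MA and 8 in DED against MSC, and ranged from 6 to 8, 5 to 7 and 6 to 8 over the alternatives. Of all genes 33.0%, 25.9% and 33.4% passed in these comparisons. Over the alternatives the genes passing numbered 5394 to 6258, 4130 to 4933 and 5450 to 6376. No member or other named gene that passed changed sign. BCKDHA in DED against MA also passed with a shift to 1 median (limma adjusted p = 0.046), dim genes left out (0.045), an intensity trend (0.037) and array weights (0.039); the cause was not tested. HIBCH in DED against MSC lost its call with the shift (0.061) and with only the groups compared (0.064). With the replicate block, HIBCH lost its call in MA against MSC (0.067) and in DED against MSC (0.078), and no other member changed its call. The paired sign-flip (replicate block) cannot reach the threshold with 5 pairs. Under it BCAT1 minus BCAT2 kept its differences of -1.47, 1.14 and -0.33, each at an exact adjusted p of 0.094. BCKDK minus PPM1K, given as values only, kept its -0.68 in MA against MSC. Without DED arrays 1 and 3, BCAT1 minus BCAT2 in DED against MSC was -0.28 (exact adjusted p = 0.054, with fewer arrays). Leaving out 1 array at a time, BCKDK minus PPM1K in DED against MA ran from 0.27 to 0.50. BCAT2, BCKDK, PPM1K, ACADSB and ACAD8 had all group means under 8.31, and IVD its DED and MSC means. This limits what their values can show. Over all arrays the means of BCAT2, IVD, ACADSB and BCKDK exceeded those of 93.6%, 93.1%, 90.5% and 79.2% of the negative control probe sets.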

Other observations

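Of 8 genes that sense leucine or act with the mTORC1 kinase, 3 rose and 1 fell in MA against MSC. In DED against MA 2 rose and 3 fell. Over all genes 33.0% and 25.9% passed in these comparisons. SESN2, a leucine sensor that is also an ATF4 target, was 9.32, 9.55, 10.76, 10.13 and 9.85 in DED arrays 1 to 5, against 7.59 to 7.85 in MA, and it rose by 2.21 in DED against MA (limma adjusted p = 2.5e-08). The MA mean of SESN2, 7.71, was under the negative control percentile of 8.31, so this size depends on background. DEPTOR, an mTOR inhibitor, rose by 2.49 in MA against MSC (limma adjusted p = 3.7e-08), where its MSC mean of 7.25 was under 8.31 too. DEPTOR fell by 0.73 in DED against MA (0.024), with adjusted p of 0.058 to 0.072 without any 1 of DED arrays 2, 4 and 5 and MA arrays 3 and 4.

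The genes whose profile over the 15 arrays was most like that of BCAT1 were CALU (Pearson r 0.979, Spearman rho 0.940), CNOT9 (0.973, 0.935) and PLOD2 (0.971, 0.947). For BCAT2 they were NQO1 (0.904, 0.836), DFFA (0.880, 0.809) and EFNB1 (0.856, 0.878). These are descriptions over arrays that share 3 groups, and the BCAT2 values span a small range under 8.31.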
